A study of Homo sapiens with 3 samples.

Results

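The genes described here encode the cytosolic HSP90 chaperones HSP90AA1 and HSP90AB1 and 8 of their co-chaperones, CDC37, AHSA1, PTGES3, STIP1, FKBP4, FKBP5, STUB1 and PPID. Their probe sets were taken by gene symbol from the platform annotation, and no measured value entered that step. The genes themselves were chosen with earlier results of these data known. The annotation lists 24 probe sets for 9 of the 10 genes, among 19775 genes with a probe set of their own. AHSA1, the activator of the HSP90 ATPase, has no probe set in the annotation used, so no level is given for it. None of the 24 probe sets is listed for a second gene, but the names of 15 end in _s_at or _x_at, which marks probes that may match other transcripts as well.

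Levels were measured in HEK-293T cells, a human embryonic kidney line that carries a temperature-sensitive SV40 T-antigen gene, on 3 Affymetrix U133 Plus 2.0 arrays, 1 for each culture. All cultures were unstressed and grew in DMEM with 10% serum. A low-seeded culture (375K cells, where K is 1000, RNA integrity number 9.6) and a high-seeded culture (750K cells, 10.0) were harvested at 48 h, and a culture seeded with 1000K cells (9.5) at 24 h. There was no heat-treated culture, and harvest time, seeding number and any batch cannot be told apart. The labels do not state that the cultures came from separate passages, so an SD over the 3 arrays holds both technical spread and the difference in culture.

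HSP90 is an ATP-driven chaperone that acts late in protein folding, on client proteins such as kinases and steroid receptors, and in unstressed cells it also holds HSF1, the transcription factor of the heat shock response, in an inactive complex. HSP90AA1 is the stress-inducible isoform and HSP90AB1 the constitutive one. Co-chaperones bind in turn: CDC37 brings kinases, STIP1 passes clients from HSP70 to HSP90, PTGES3 (p23) holds the ATP-bound form, FKBP4, FKBP5 and PPID are prolyl isomerases of steroid receptor complexes, and STUB1 (CHIP) is a ubiquitin ligase that marks clients for degradation.

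HSF1 binds heat shock elements, which are inverted repeats of the unit GAA. The RefSeq promoter windows (GRCh38.p14, 250 bases before to 50 after each gene start) were searched on both strands for 3 alternating units, GAANNTTCNNGAA or TTCNNGAANNTTC, counting overlapping matches. Of the 10 genes 8 had a window (not FKBP4 and STUB1), with 14 windows in all. Matches were found for HSP90AA1 and HSP90AB1, the chaperones themselves, and for none of the 6 co-chaperones that had a window. Of all 35116 windows 0.49% held a match, beside 2 of these 14, and of all 27305 genes with a window 0.608%. Among the related lists described further on, 4 of 10 heat-inducible genes with a window and 1 of 15 further co-chaperones held one. The stretches around the matches are shown because they hold the element in both chaperone genes, and that of the heat-inducible HSP70 gene HSPA6 is set beside them. Capitals mark the 3-base units.
HSP90AA1: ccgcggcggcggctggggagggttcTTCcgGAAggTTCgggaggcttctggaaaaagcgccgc
HSP90AB1: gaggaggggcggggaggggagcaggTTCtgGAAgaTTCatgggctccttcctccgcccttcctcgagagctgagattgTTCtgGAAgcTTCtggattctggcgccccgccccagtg
HSPA6: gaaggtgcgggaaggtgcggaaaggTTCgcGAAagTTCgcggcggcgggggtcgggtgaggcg

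The stretch of HSP90AA1 lies at chr14:102087095-102087157 on the minus strand, and its match begins 88 bases before the start in that window. That of HSP90AB1 lies at chr6:44247753-44247868 on the plus strand, with matches that begin 165 and 112 bases before the start in that window. Other windows of both genes held no match and lie upstream of these stretches. They are chr14:102139700-102139999 for HSP90AA1, and chr6:44245944-44246243 and chr6:44246851-44247150 for HSP90AB1. The matches therefore lie after the starts in those windows. The stretch of HSPA6 lies at chr1:161524441-161524503 on the plus strand, with a match beginning 74 bases before the start. A match shows the letters of the element only, and binding of HSF1 was not measured here. Only perfect matches in these windows were sought, and the heat-inducible genes DNAJB1, HSPB1 and BAG3 had none either. A window without a match therefore does not show that a gene lacks the element.

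All 9 measured genes were above background in the unstressed cells, and 23 of their 24 probe sets were. A probe set counted as above background where its signal exceeded, on every array, the 95th percentile of 280 probe sets of olfactory and taste receptors and of genes restricted to other tissues, which was 113.5 in the low-seeded 48 h, 122.1 in the high-seeded 48 h and 101.0 in the 24 h culture. Over the whole array 37.3% of probe sets and 50.6% of genes passed. Signals are MAS5 intensities on a linear scale, scaled to the same trimmed mean on each array, and a brighter probe set does not imply more transcript than a dimmer one. Within a gene the probe sets are named by their mean signal, from the brightest to the dimmest. Of the marker genes of embryonic kidney and of this line, 8 of 10 were above background (the kidney factors PAX2 and LHX1 were not), against 0 of 4 measured immune, 0 of 5 endothelial and 1 of 5 stromal markers (COL1A1).

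**Figure D1:**
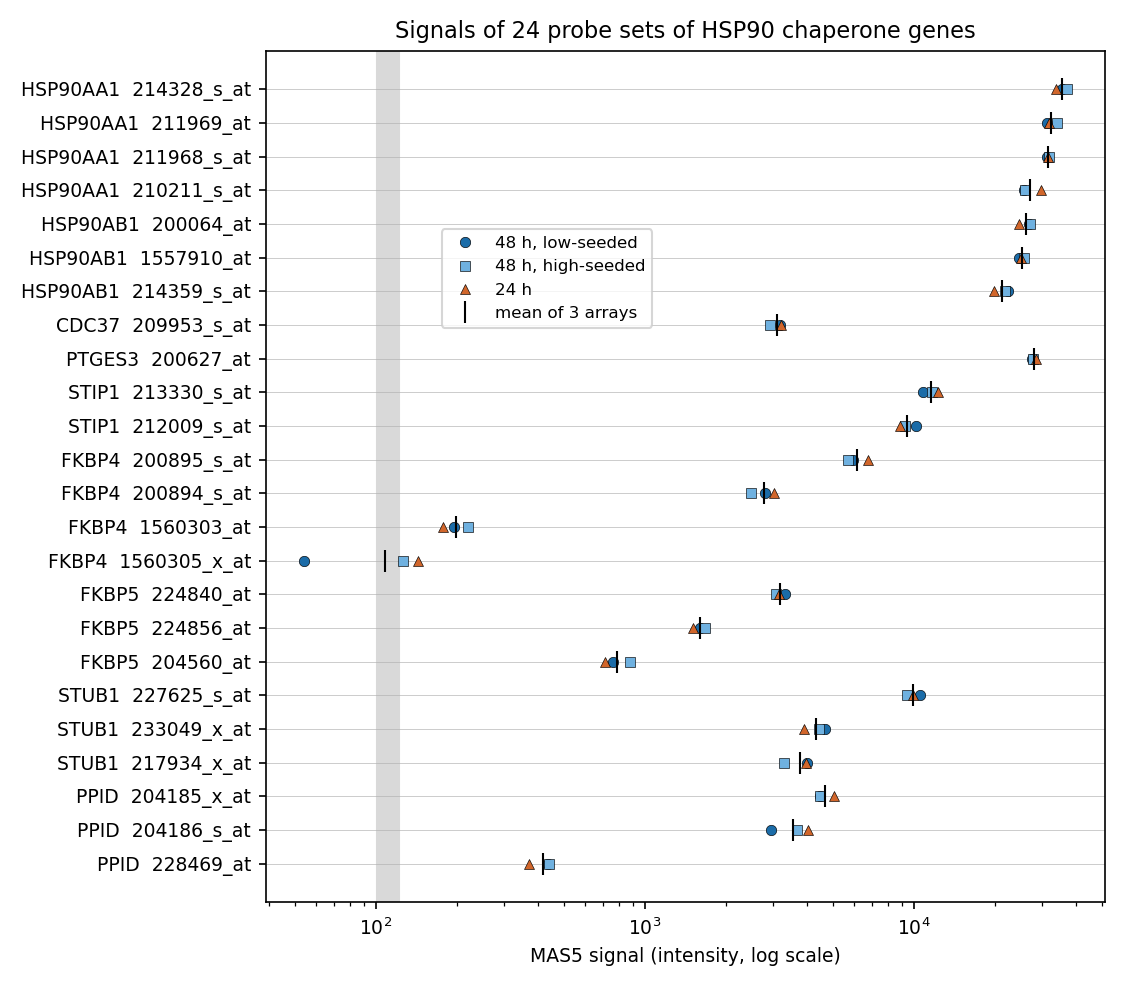
Signal in each culture for the 24 probe sets of HSP90 chaperone and co-chaperone genes, 1 row each, from the brightest to the dimmest within a gene. The x axis gives MAS5 intensity on a log scale; circles and squares are the 48 h cultures, triangles the 24 h culture and ticks the mean of 3 arrays. Background limits of 101.0 to 122.1 are shaded, and the dimmest FKBP4 probe set alone has a value below them.

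HSP90AA1 gave signals between 25661 and 36986 on all 4 of its probe sets. The brightest gave 35622 in the low-seeded and 36986 in the high-seeded 48 h culture and 33678 in the 24 h culture (mean 35429 ± 1663, SD, n = 3 arrays), so that both 48 h values lay above the 24 h value. The second, the only one of them whose name does not mark possible matches elsewhere, gave 31305 and 34078 at 48 h and 31710 at 24 h. The third gave 31273 and 31840 at 48 h and 31478 at 24 h, a coefficient of variation of 0.911%. The dimmest went against the brightest, with 25661 and 25798 at 48 h and 29722 at 24 h.

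HSP90AB1, the constitutive isoform, gave signals of the same order on 3 probe sets. The brightest gave 26812 in the low-seeded and 27095 in the high-seeded 48 h culture and 24611 in the 24 h culture (26172 ± 1360, SD, n = 3 arrays). The dimmest gave 22310 and 21795 at 48 h and 19807 at 24 h. On both of these the 24 h culture was the lowest of the 3. The second gave 24707 and 25729 at 48 h and 25127 at 24 h, with the 24 h value between the others. The highest HSP90AA1 signal was 60.3% and 57.4% of the highest signal on the low-seeded and high-seeded 48 h arrays and 63.6% at 24 h, and whether such bright signals were compressed was not tested.

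STIP1, which links HSP70 with HSP90, was measured by a pair of probe sets that disagreed in direction. The dimmer gave 10218 and 9245 in the low-seeded and high-seeded 48 h cultures and 8884 at 24 h (9449 ± 689.5, SD, n = 3 arrays). The brighter gave 10852 and 11668 at 48 h and 12303 at 24 h (11608 ± 727.3). The cultures therefore ranked in opposite order on the pair, with the low-seeded culture highest on the dimmer and lowest on the brighter. CDC37, the kinase co-chaperone, has a single probe set, which gave 3170 and 2918 at 48 h and 3199 at 24 h (3095 ± 154.2). PTGES3, also called p23, gave 27483 and 27790 at 48 h and 28407 at 24 h on its single probe set (27893 ± 470.2), a coefficient of variation of 1.69%.

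FKBP4 (FKBP52), which promotes hormone binding by steroid receptors, and FKBP5 (FKBP51), which opposes it and is itself induced by glucocorticoids, were both above background. FKBP4 gave 5938 and 5691 in the low-seeded and high-seeded 48 h cultures and 6757 at 24 h on the brightest probe set (6129 ± 558.1, SD, n = 3 arrays). On the second it gave 2808 and 2474 at 48 h and 3014 at 24 h, so both 48 h values were below the 24 h value on each of these probe sets. Its other probe sets were dim. The third gave 195.3 and 220.4 at 48 h and 178.0 at 24 h, and the dimmest gave 53.9 and 125.9 at 48 h and 143.6 at 24 h. The last was the only probe set of these genes not above background, because of its low value in the low-seeded culture.

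FKBP5 gave 3329 and 3081 in the low-seeded and high-seeded 48 h cultures and 3163 at 24 h on the brightest probe set (3191 ± 126.0, SD, n = 3 arrays). It gave 1603 and 1671 at 48 h and 1514 at 24 h on the second, and 762.3 and 880.2 at 48 h and 712.3 at 24 h on the dimmest. None of its 3 probe sets is marked for matches elsewhere. On the dimmer pair both 48 h values were above the 24 h value, and on the brightest the 24 h value lay between them.

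PPID (cyclophilin 40) gave 4488 and 4496 in the low-seeded and high-seeded 48 h cultures and 5036 at 24 h on the brightest probe set (4674 ± 314.2, SD, n = 3 arrays). On the second it gave 2949 and 3663 at 48 h and 4054 at 24 h. This was the widest spread among the 23 tested probe sets, with a highest value 1.37 times the lowest. Its dimmest probe set gave 437.0 and 439.6 at 48 h and 371.9 at 24 h, with both 48 h values above the 24 h value. STUB1, the ubiquitin ligase, gave 10572 and 9397 at 48 h and 9923 at 24 h on the brightest probe set (9964 ± 588.5). It gave 4684 and 4429 at 48 h and 3910 at 24 h on the second, and 4022 and 3301 at 48 h and 3970 at 24 h on the dimmest. All 3 of its probe sets are marked for possible matches elsewhere, as are those of CDC37 and STIP1.

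The levels of these genes varied over the cultures about as much as those of other bright probe sets. The coefficient of variation over the 3 arrays had a median of 6.27% for the 23 tested probe sets, with a range of 0.911% to 15.8%. For these the SD of log2 signals had a median of 0.091, beside 0.16 for all 22197 probe sets bright enough to test. In the brightest 25% of tested probe sets, which hold 19 of the 23, that median was 0.091 as well. The low-seeded and high-seeded 48 h cultures differed by a median of 0.081 on the log2 scale for these genes and by 0.16 for all tested probe sets. This gap was not computed for the brightest 25% alone, so it was not compared at like brightness.

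The 48 h cultures were compared with the 24 h culture by limma across all tested probe sets, as a log2 difference of 48 h minus 24 h. Of the 23 probe sets of HSP90 chaperone and co-chaperone genes 0 passed at an adjusted p under 0.05, while 0.315% of all tested probe sets passed (16 higher and 54 lower at 48 h, or 5 and 5 after scaling to equal medians). An unadjusted p under 0.05 was found for 4 of the 23, beside 9.47% of all tested probe sets. After scaling to equal medians or without limma's mean-variance trend it was found for 0 of the 23. Under quantile normalization it was found for 5, and the lowest adjusted p was 0.0504. Without such changes the lowest adjusted p was 0.421, for the second probe set of PPID, with a difference of -0.30 (standard error 0.12, 95% interval -0.56 to -0.045). Without the low-seeded culture this difference was -0.15, and without the high-seeded culture -0.46. The other probe sets with an unadjusted p under 0.05 were the dimmest of HSP90AA1 at -0.21 (interval -0.41 to -0.0071), the brightest of FKBP4 at -0.22 (-0.42 to -0.013) and the second of STUB1 at 0.22 (0.0060 to 0.43). These p-values rest on 1 residual degree of freedom per probe set and on the assumption that the single 24 h array varies like the 48 h pair. That degree of freedom is the difference between the low-seeded and high-seeded 48 h cultures. The rest of the spread used by limma is borrowed from all tested probe sets.

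The differences lay on both sides of 0. Of the 23 probe sets 14 had a positive and 9 a negative difference, beside 49.2% positive among all tested probe sets. The median was 0.0064, beside -0.0048 for all tested probe sets. Signs of small differences turned with the scaling of the arrays: under quantile normalization or scaling to equal medians 6 probe sets changed sign, the 3 brightest of HSP90AA1 and 1 each of HSP90AB1, FKBP5 and STUB1, and the median became -0.065 and -0.046. Both 48 h values were above the 24 h value for 9 of the 23 (39.1%) and below it for 8 (34.8%), close to the 35.4% and 35.1% of all tested probe sets. For 10 of the 23 the gap between both 48 h cultures was larger than the difference between 48 h and 24 h.

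**Figure D2:**
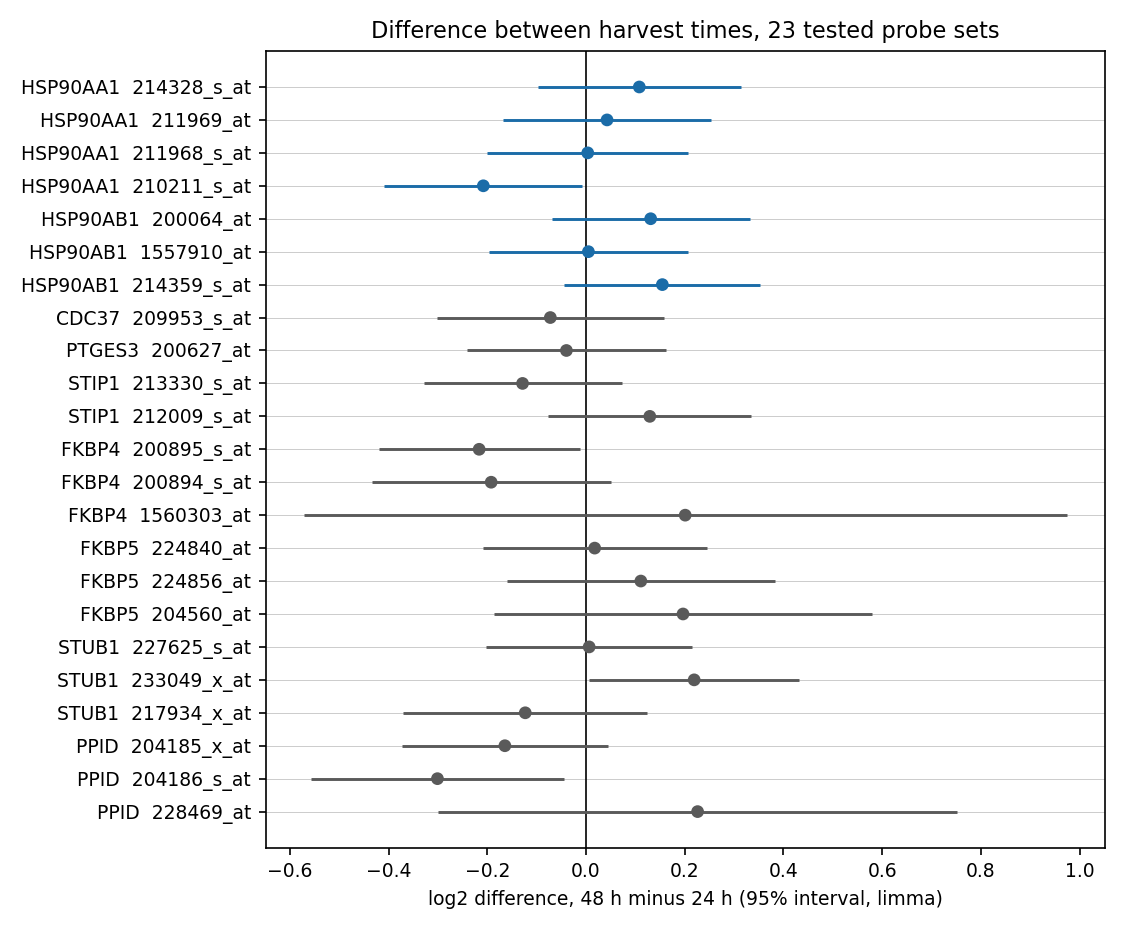
Log2 difference in signal, 48 h minus 24 h, for the 23 tested probe sets. Points are limma estimates and bars their 95% intervals, blue for HSP90AA1 and HSP90AB1 and grey for the co-chaperones; points to the right of the line at 0 had higher signals at 48 h. The widest interval is that of the third FKBP4 probe set, from -0.57 to 0.97.

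Probe sets of the same gene often pointed in opposite directions. Of the 7 genes with more than 1 tested probe set, 5 (HSP90AA1, STIP1, FKBP4, STUB1 and PPID) had differences of both signs. Which genes did so depended on the scaling: under quantile normalization all HSP90AA1 differences were negative and HSP90AB1 had both signs, and after scaling to equal medians all 7 genes had both. STIP1 gave 0.13 on the dimmer probe set (95% interval -0.077 to 0.33) and -0.13 on the brighter (-0.33 to 0.072). Without the low-seeded culture these were 0.057 and -0.076, and without the high-seeded culture 0.20 and -0.18. STUB1 ran from -0.12 on the dimmest probe set to 0.22 on the second. The negative value rested on the high-seeded culture, since it was -0.26 without the low-seeded and 0.019 without the high-seeded culture, and all 3 STUB1 differences were then positive. For HSP90AB1 all 3 differences were positive, at 0.0049, 0.13 and 0.15, and for FKBP5 likewise, at 0.018, 0.11 and 0.20, although the smallest of each gene turned with the scaling. On the brightest probe set of HSP90AB1 the interval ran from -0.070 to 0.33.

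The HSP90 paralogs of other compartments were also above background, HSP90B1 on both of its probe sets and TRAP1 on 1 of 2. HSP90B1 (GRP94), of the endoplasmic reticulum, gave 6558 and 6110 in the low-seeded and high-seeded 48 h cultures and 6722 at 24 h on its brightest probe set (6463 ± 316.6, SD, n = 3 arrays). On the dimmer it gave 1091 and 1238 at 48 h and 1404 at 24 h, a log2 difference of -0.27. TRAP1, the mitochondrial paralog, gave 8166 and 8192 at 48 h and 7184 at 24 h on the brighter (7847 ± 574.7), with both 48 h values above the 24 h value. Neither passed the limma test, with log2 differences of -0.086 (adjusted p = 0.856) and 0.19 (adjusted p = 0.562).

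Of 20 further co-chaperones, fixed as a list, 18 had a probe set and all 18 were above background. With each gene taken at its brightest probe set, 0 of 18 passed the limma test (3 of 36 probe sets at an unadjusted p under 0.05, beside 9.47% of all tested). Of the differences 5 were positive and 13 negative, beside 49.2% positive among all tested probe sets, and the median was -0.072. The largest were those of CDC37L1, a relative of CDC37, at -0.48 (adjusted p = 0.643), SGTA, which helps to target membrane proteins, at -0.26 (adjusted p = 0.754), and DNAJC7, a J-domain protein that binds both HSP70 and HSP90, at 0.25 (adjusted p = 0.437). Without the low-seeded culture they were at -0.35, -0.37 and 0.36, and without the high-seeded culture at -0.62, -0.15 and 0.14. CHORDC1 was the only gene of this list with a match to the heat shock element, of 15 with a promoter window, and was singled out for it afterwards. Its difference was -0.24 (adjusted p = 0.406).

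Among 16 known clients 13 had a probe set and 9 were above background. HSF1 gave 343.3 and 249.8 in the low-seeded and high-seeded 48 h cultures and 262.2 at 24 h on its brighter probe set (285.1 ± 50.7, SD, n = 3 arrays), above background on each. The glucocorticoid receptor NR3C1, held ready for hormone by HSP90 with the FKBP proteins, gave 1711 and 1660 at 48 h and 1930 at 24 h (1767 ± 143.3) and was above background on 4 of 5 probe sets. The cell cycle kinase CDK4 gave 10543 ± 84.2. The clients not above background were the hormone receptors PGR and ESR1, the tyrosine kinase SRC and the telomerase subunit TERT. The clients with the widest differences were SRC at -0.52 and TERT at 0.52, both from dim signals, and the dioxin receptor AHR at 0.42, with adjusted p-values of 0.827, 0.811 and 0.762. With the mean threshold of 112.2 added before taking logs they were -0.29, 0.31 and 0.30. Without the low-seeded culture they were -1.15, 0.84 and 0.29, and without the high-seeded culture 0.11, 0.19 and 0.55. Of 11 clients tested 0 passed in limma, and 0 of their 16 probe sets had an unadjusted p under 0.05.

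Genes known to be induced by heat served as a further list, since HSP90AA1 is one of their kind. Of 10 such genes 9 had a probe set and 8 were above background. HSPA6, whose promoter stretch is printed above, was not: its brighter probe set gave 53.5 and 109.6 in the low-seeded and high-seeded 48 h cultures and 28.0 at 24 h. On the brightest probe set 0 of 8 tested genes passed the limma test (5 of 15 probe sets at an unadjusted p under 0.05, beside 9.47% of all tested). Of the 8 differences 6 were negative, where 49.2% of all tested probe sets had a positive difference. The median was -0.20, beside 0.0064 for the HSP90 chaperone and co-chaperone probe sets. The small heat shock protein HSPB1 gave 1793 and 1919 at 48 h and 2570 at 24 h, the HSP40 protein DNAJB1 3254 and 3089 against 4338, and the HSP70 co-chaperone BAG3 1493 and 1554 against 2024. Their log2 differences were -0.47, -0.45 and -0.41, with adjusted p-values of 0.120, 0.0805 and 0.244. These are the largest of the list, and the remaining tested genes ran from -0.33 to 0.12. The median of 0.0064 covers all tested probe sets of HSP90 and its co-chaperones, whereas that of -0.20 takes the brightest of each gene. At the brightest probe set, differences were 0.11 for HSP90AA1, 0.13 for HSP90AB1, 0.018 for FKBP5 and 0.0064 for STUB1. They were -0.040 for PTGES3, -0.072 for CDC37, -0.13 for STIP1, -0.16 for PPID and -0.22 for FKBP4. No difference between the lists was tested.

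**Figure D3:**
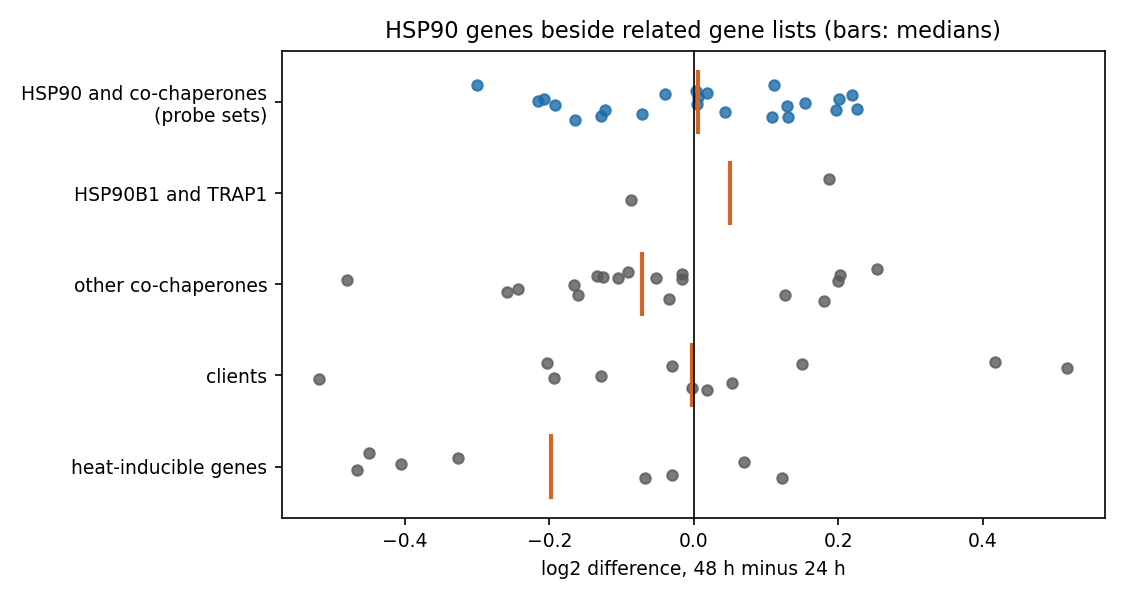
Log2 difference in signal, 48 h minus 24 h, for the 23 tested probe sets of HSP90 chaperone and co-chaperone genes and for genes of 4 related lists, each at its brightest probe set. Each point is a probe set, placed at random height within its row, and bars are medians. The 23 probe sets of HSP90 and its co-chaperones, several for some genes, have a median of 0.0064. Of the 8 heat-inducible genes 6 lie left of 0.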

How the data were processed

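Total RNA of 3 HEK-293T cultures was hybridised to Affymetrix U133 Plus 2.0 arrays. The authors deposited an intensity for each of 54675 probe sets, a linear MAS5 signal. The submitters' processing notes name GCOS 1.0. After trimming 2% at each end, arrays averaged 500.1. Detection calls were not used here. Genes were named through the platform annotation, updated by gene ID (GRCh38.p14); 41097 probe sets have 1 gene, 1801 several and 11777 none.

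Arrays were compared with limma 3.58.1 (R 4.3.3, empirical Bayes with a mean-variance trend) on log2(signal + 19.6), where 19.6 is the median signal of the background reference, over 22197 probe sets whose mean log2 signal exceeded that of the mean threshold (112.2). This scale understates changes at low intensity. P-values were two-sided and adjusted over these by Benjamini-Hochberg. A 48 h against 24 h comparison was simulated over the same 22197 probe sets, with 200 of them changed. Of log2 changes of size 1, 59.5% were recovered with 10 false calls, and of size 2, 91.5% with 15. The noise was normal with the spread that limma fitted, so the model held by design. Differences of the HSP90 chaperone and co-chaperone probe sets ran from -0.30 to 0.23, and recovery of changes that small was not simulated. The members and lists were chosen with earlier results of these data known. Named beside the members were HSP90B1, TRAP1, HSF1 and NR3C1, genes that passed, up to 5 genes of a list not above background and the 3 largest differences of each list; CDK4 and CHORDC1 were added after their values were seen. The number of arrays limits the precision. Alternatives were another percentile, reference, number of arrays, normalization, added value, filter, trend, and each array left out.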

Additional observations from a re-analysis of the deposited data

How the results depend on the processing

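All 9 measured genes were above background under each other percentile, reference and normalization tried, with 2 of 3 arrays sufficing and with each array left out. Without probe sets that can share sequence 6 genes remained, as CDC37, STIP1 and STUB1 have no others, and 9 probe sets in place of 23. At the 99th percentile (682.7 to 895.0 depending on the array) 20 probe sets passed, without 1 each of FKBP4, FKBP5 and PPID. With each array left out in turn the number was 23 to 24. No probe set of these genes passed between 48 h and 24 h in any alternative run; the lowest adjusted p was 0.0504, under quantile normalization, and 0.410 to 1.00 in the others. Of all tested probe sets 70 passed, against 10 after scaling to equal medians and 0 when limma ran with no trend (871 and 1356 at an unadjusted p under 0.05), and 74 to 102 in the others. The median difference of these genes was 0.017 and 0.019 with each 48 h array left out, values with no test. Of 115 differences under other settings 10 turned in sign, and with a 48 h array left out 6 probe sets turned and 13 of 23, these included, moved by over 1.5 times. Settings for genes of the related lists were chosen after seeing the data. None of the 15 genes followed passed under another setting. Under changes of added value and normalization their signs held, except for CDK4 (0.019). It was at -0.0052 under quantile normalization and -0.034 after scaling to equal medians. Without the low-seeded and without the high-seeded culture SRC was at -1.15 and 0.11, and HSF1 at -0.065 and 0.36; no other of the 15 turned. Signals near the threshold, such as those of the dimmest FKBP4 probe set, limit what dim probe sets show. No paired analysis was possible because the labels give no replicate numbers and a single culture was harvested at 24 h.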
